A study of Drosophila melanogaster with 2 samples.

Results

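Eukaryotic translation initiation factors (eIFs) bring the initiator tRNA, the mRNA and the ribosomal subunits together at the start codon. eIF2 carries the initiator tRNA and is recharged with GTP by eIF2B. eIF1, eIF1A and eIF5 control start codon choice, eIF3 is the multi-subunit scaffold on the small subunit, and the eIF4 group recognises the mRNA cap and unwinds the leader. eIF5B joins the subunits, and eIF6 keeps the large subunit from joining too early. These genes are used in nearly all cells, but several fly eIFs also exist as extra copies, some of them known from the testis.

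The genes described here are all protein-coding genes of the Ensembl annotation whose symbol starts with eIF, 44 of 13968 on the assembled chromosomes and arms. They were followed in ChIP-seq peaks of the homeodomain protein lms (CG13424), a muscle identity factor named for its role in the lateral muscles. There was 1 group: whole embryos of both sexes, pooled, from a transgenic stock with a stable lms fusion carrying GFP at its C terminus, between 6 and 18 hours old. Chromatin was precipitated with an antibody against GFP in 2 biological replicates, and no untagged embryos were analysed here. The age is taken from the source name, since the age field itself holds a different value. The labels name 1 line and do not state the promoter of the transgene. In whole embryos, binding in few cells and weak binding in many cannot be told apart.

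Peaks were represented by their summits in 4 deposited lists on dm6. The list of each replicate held 30000 peaks, and so did the list called on the pooled replicates. The IDR list, which passed a threshold on the irreproducible discovery rate, was equal to the top 7521 pooled peaks by signal. A gene was counted as bound where a summit lay in the gene or the 2 kb upstream. Signal is a score the authors gave each peak, on a scale that was not stated and that differed between lists (median 50.7 in replicate 1 and 13.7 in replicate 2), so ranks are given beside it, with 1 the highest. The read depth of the libraries is unknown from the sources used here.

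IDR summits were found at 20 of the 44 eIF genes (45.5%), close to the 40.0% of all protein-coding genes. Within 500 bp of an own transcription start site, 16 eIF genes (36.4%) had an IDR summit, against 28.8% of all genes. In the tRNA and start codon group 7 of 9 genes were bound, beside 3 of 5 eIF2B genes, 6 of 16 eIF3 genes and 3 of 13 eIF4 genes. The single other gene, eIF6, was bound. The 7521 highest peaks of replicate 1 gave the same counts. Those of replicate 2 gave 6 of 9, 4 of 5, 6 of 16 and 5 of 13, so the order of the start codon and eIF2B groups changed. These groups are small, and the differences between them were not tested.

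In the deeper lists most eIF genes had a summit at their own start site. The pooled list placed a summit in the window of 30 eIF genes (68.2%), against 64.6% of all genes, and each of these 30 genes had one within 500 bp of an own start site. That promoter share, 68.2%, stood against 53.4% of all genes. Over all genes with a pooled summit in the window, 82.6% had one within 500 bp of an own start site. In replicate 1, 30 eIF genes had a summit in the window (68.2%, against 63.9% of all genes) and 28 at the promoter (63.6%, against 53.4%). In replicate 2, the counts were 34 (77.3%, against 71.6%) and 32 (72.7%, against 52.5%).

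**Figure D1:**
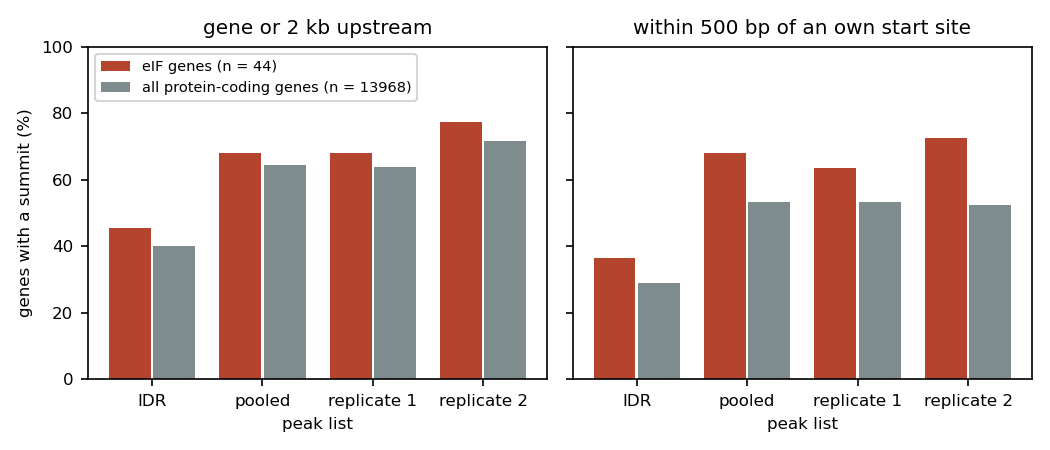
Percentage of genes with a summit in the gene or 2 kb upstream (left) and within 500 bp of an own start site (right), in each of the 4 peak lists. Bars are shares of 44 eIF genes and of 13968 protein-coding genes with no error bar; at promoters in the pooled list they reach 68.2% and 53.4%.

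The highest IDR peaks of bound eIF genes had partners in both replicates, a match that the choice of list favoured. The IDR list was itself derived from the agreement of these replicates. The highest IDR peak of each of the 20 bound eIF genes had a summit within 150 bp in both replicate lists, as had 97.1% of the highest peaks of all bound genes. Within the highest 7521 peaks of both replicates it was 16 of 20 (80%), against 86.2% of all bound genes. Ranks of these 20 peaks in the replicates had a Spearman rho of 0.886, which describes 20 peaks of the IDR list, called against the same control alignment. Weaker pooled summits did not all have a partner in both lists. That of eIF2D at rank 10223 lacked one in replicate 2, and that of eIF3e at rank 13324 in replicate 1. Among the 7521 highest peaks of replicate 1 the bound eIF genes were the same 20 as in the IDR list. Among the 7521 highest of replicate 2 they numbered 22, of which 17 were shared with the IDR list. eIF2beta, eIF3k and eIF5 were not among them, and eIF2Balpha, eIF2alpha, eIF3j, eIF4B and eIF4H1 were added. The sharing is by gene and not by peak. For eIF4A the replicate 2 call came from a summit 207 bp upstream at rank 7458, without a pooled partner within 150 bp. The IDR summits of eIF4A ranked 8703 and 8286 in replicate 2.

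The peaks of 3 eIF genes were among the first 60 of the IDR list, and the next was at rank 378. The share of all genes with a peak of such rank was not counted. The median rank over the 20 bound genes was 2866, against 2611 over all 5583 bound protein-coding genes. The window of eIF2Bbeta, a subunit of the exchange factor, held the peak of rank 4 in the IDR list (X, 2703644 to 2704135). Its signal was 6998 in replicate 1 (rank 4) and 1703 in replicate 2 (rank 3). The summit lay 680 bp upstream of eIF2Bbeta but 39 bp upstream of Ugalt, the gene of a Golgi nucleotide sugar transporter, which is transcribed in the opposite direction. A weaker pooled summit stood at the eIF2Bbeta start itself, at rank 15736. It ranked 20379 in replicate 1 and 7334 in replicate 2.

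eIF4EHP encodes a cap-binding protein that represses maternal mRNAs in the embryo, and it carried the peak of rank 20 (3R, 24108911 to 24109442). The signal was 4088 in replicate 1 (rank 22) and 1014 in replicate 2 (rank 19). Its summit was 230 bp upstream of eIF4EHP and 146 bp upstream of the divergent gene CG18428. eIF3d1, a subunit of the eIF3 scaffold, had the peak of rank 378 in its window (3R, 23678522 to 23678939), with 1121 in replicate 1 and 288 in replicate 2. That summit was 1307 bp upstream of eIF3d1 and 163 bp upstream of GILT2. At the eIF3d1 start itself the pooled list held a weaker summit, 77 bp upstream, at rank 10609.

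The stretches around these 3 summits, which are among the 4 highest at eIF genes, are shown next. The eIF6 summit, at rank 57, is not shown; it had 36.6% GC and none of the motifs searched. Each is the release 6 sequence on the strand of the eIF gene, up to 50 bp to either side of the summit, cut where an annotated exon began. Capitals mark TAATTA, a core that many homeodomains bind, and ATATTA, on either strand. GC content was 19.8% for eIF4EHP, 19.8% for eIF3d1 and 32.6% for eIF2Bbeta, whose stretch holds neither sequence. The median over all IDR summits was 30.7%.
eIF4EHP, chr3R:24109140-24109240, minus strand: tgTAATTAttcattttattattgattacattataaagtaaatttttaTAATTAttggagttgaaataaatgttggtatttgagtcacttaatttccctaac
eIF3d1, chr3R:23678682-23678782, plus strand: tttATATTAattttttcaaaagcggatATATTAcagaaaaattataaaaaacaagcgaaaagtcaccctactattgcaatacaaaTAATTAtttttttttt
eIF2Bbeta, chrX:2703853-2703941, plus strand: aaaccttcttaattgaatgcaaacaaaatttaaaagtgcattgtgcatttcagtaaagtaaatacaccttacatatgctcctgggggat

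Among genes of the initiator tRNA and start codon group, eIF5B and eIF1 had the highest peaks. eIF5B, the subunit-joining GTPase, held 8 IDR summits, of which the highest (rank 794) lay in an intron 27741 bp downstream of the nearest own start site. It had a signal of 733 in replicate 1 and 173 in replicate 2. The promoter summit of eIF5B, 129 bp upstream of an own start site, was at rank 1221, with 543 in replicate 1 and 131 in replicate 2. eIF1, which monitors start codon pairing, had 2 promoter summits in 1 peak interval, 281 and 81 bp upstream, at ranks 1793 and 2410. The higher of them lay 100 bp upstream of RpL28, a ribosomal protein gene read in the opposite direction. Its signal was 352 in replicate 1 (rank 2229) and 161 in replicate 2 (rank 877).

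Most other genes of this group had 1 IDR promoter peak, at ranks from 2840 to 6321. Over all bound genes the highest peaks had a median rank of 2611, with quartiles of 1124 and 4742. eIF2D, an alternative initiation factor, had a summit 94 bp upstream at rank 2840, with 281 in replicate 1 and 64.7 in replicate 2. For eIF2beta, the summit was 275 bp upstream at rank 4746, and it ranked 4546 in replicate 1 but 9787 in replicate 2. eIF1A had a summit at 85 bp upstream (rank 4850), and eIF2A at 57 bp upstream of an own start site (rank 5577). eIF5, which triggers GTP hydrolysis by eIF2, had its summit 230 bp upstream, at rank 6321, and shares its annotated start with CG46312. Among the eIF2 subunits eIF2beta had an IDR summit, while eIF2alpha and eIF2gamma had none. The highest peaks of replicate 1 gave the same calls. In those of replicate 2 eIF2alpha was bound, through the peak at the eIF4H1 start (rank 4391), and eIF2beta was not. The promoter summit of eIF2alpha ranked 10507 there, near the 9787 of eIF2beta. eIF2alpha had a weaker summit 28 bp upstream at rank 9317 of the pooled list. eIF2gamma shares a start site with Su(var)3-9, a histone methyltransferase gene, and had no pooled summit. Replicate 1 held a summit 897 bp upstream of it at rank 27838, and replicate 2 a summit at the start site at rank 23881.

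None of the 5 eIF2B genes had an IDR summit within 500 bp of its own start site, and the highest 7521 peaks of replicate 1 gave 0 as well. Those of replicate 2 gave 3, at eIF2Balpha, eIF2Bbeta and eIF2Bgamma, so the count of 0 did not hold without replicate 1. The IDR peaks in 3 of their windows lay nearer to start sites of other genes. eIF2Bdelta had a peak of rank 2069, with 377 in replicate 1 and 71.9 in replicate 2, 760 bp upstream and 293 bp upstream of CG30414. That summit lay in an exon of roh, a gene on the opposite strand that starts 58 bp from eIF2Bdelta. eIF2Bgamma had a peak of rank 5390, 1276 bp upstream and 22 bp upstream of CG8187. Their own starts carried weaker summits, 3 bp upstream of eIF2Bdelta (rank 12476 of the pooled list) and 41 bp upstream of eIF2Bgamma (rank 8071). The eIF2Bgamma summit ranked 8490 in replicate 1 and 6382 in replicate 2. eIF2Bepsilon had a weaker summit 130 bp upstream at rank 8614, which lay 23 bp downstream of the start of Ocrl. eIF2Balpha had a summit in replicate 2 alone, 60 bp upstream at rank 6635.

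Of the eIF3 subunits, eIF3c had the highest peak at its own start, 42 bp upstream at rank 894, with 622 in replicate 1 and 215 in replicate 2. eIF3h followed with a summit in an intron, 287 bp downstream of a start site, at rank 1452. It had 532 in replicate 1 (rank 1275) and 56.1 in replicate 2 (rank 3357). Another summit counted for eIF3h lay exactly 2000 bp upstream, at the edge of the window, in an exon of the histone gene His3.3A. eIF3m had 2 summits, at 68 bp downstream and 133 bp upstream, the latter 93 bp upstream of the divergent gene CG8323. eIF3a had 1 at 64 bp upstream (rank 4493), which was 6 bp upstream of the divergent gene CG1074. eIF3k had 1 at 59 bp upstream (rank 6452). Below the IDR list, weaker pooled summits lay 45 bp upstream of eIF3f1 (rank 8939), 113 bp downstream of eIF3j (rank 11090) and 88 bp upstream of eIF3e (rank 13324). eIF3l (355 bp upstream, rank 13496) and eIF3b (337 bp upstream, rank 16383) had theirs nearer to the divergent genes Nrx-IV and Patronin. eIF3i had its nearest at 125 bp upstream, at rank 28152 of 30000, with no partner in either replicate list.

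In the eIF4 group, IDR summits were found at eIF4A, eIF4EHP and eIF4G2. eIF4A, the helicase, had 2: one 608 bp upstream, which was 138 bp upstream of the profilin gene chic (rank 4753), and one 45 bp upstream of an own start site (rank 5212). eIF4E1, the main cap-binding protein, had a weaker summit 2 bp downstream of a start site at rank 11880, with 58.1 in replicate 1 and 22.3 in replicate 2. eIF4H1, a helicase cofactor, had one 20 bp downstream at rank 12302; it ranked 15847 in replicate 1 and 4391 in replicate 2. The windows of eIF4H1 and eIF2alpha overlap and shared 3 pooled summits. eIF4B, another helicase cofactor, had 2 summits in replicate 2 (ranks 6661 and 11578) and 0 in the other lists. eIF4G1, the main scaffold, had no summit in any list. It lies on chromosome 4, which held 29 of the 7521 IDR peaks. That chromosome is short, at 1348131 bp against 23542271 bp for the X. The share of its genes with a summit was not counted.

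**Figure D2:**
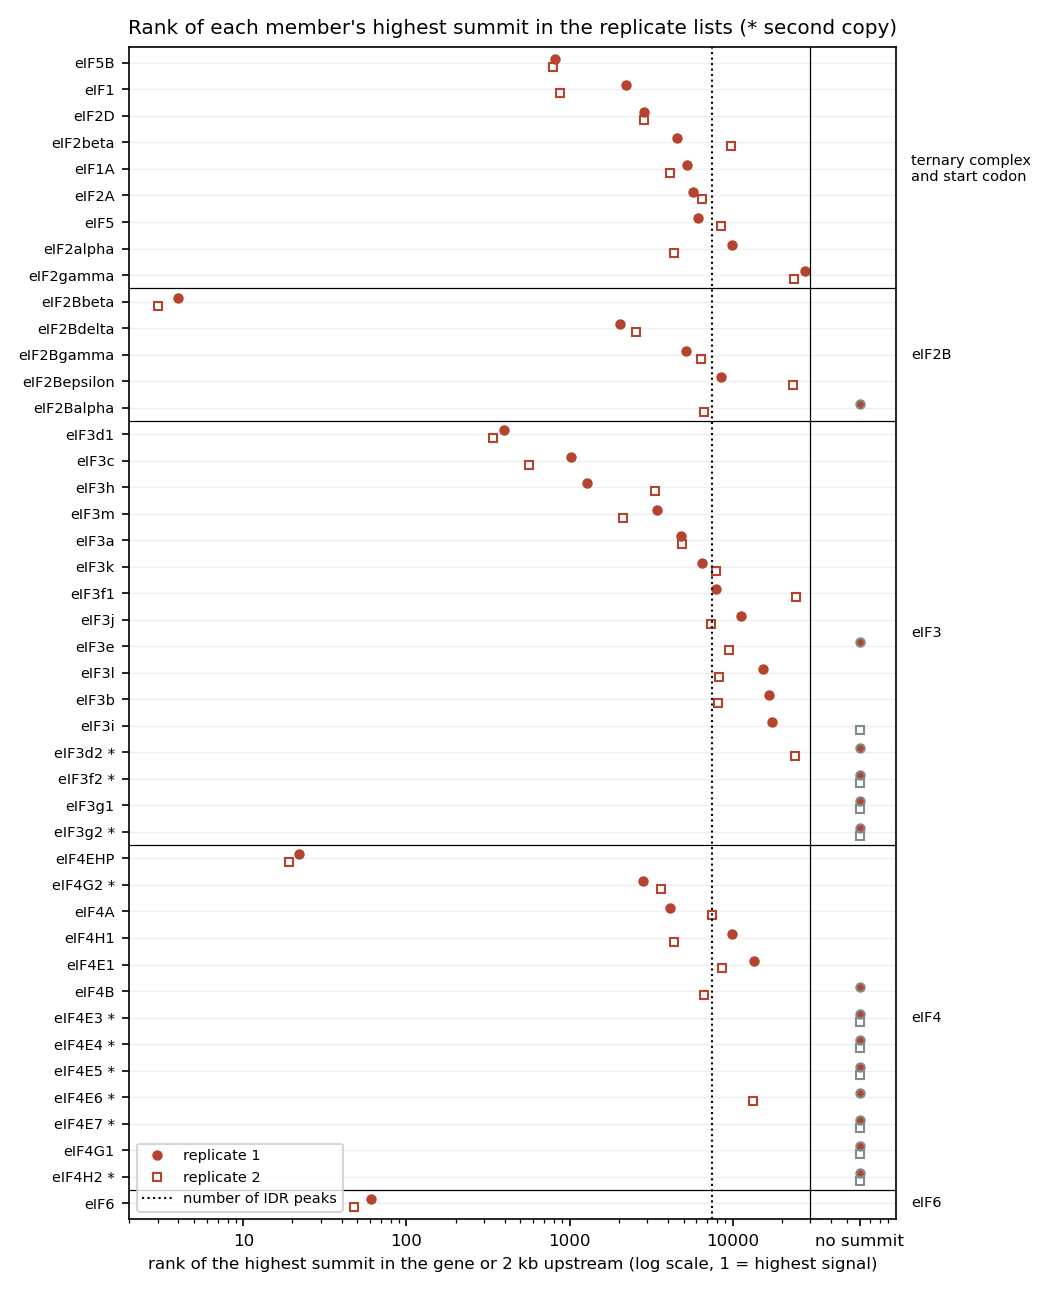
Rank of the highest summit in the gene or 2 kb upstream in the full replicate 1 list (filled circles) and replicate 2 list (open squares), log axis, for the 44 eIF genes ordered by role; grey-edged symbols right of the solid line are genes with no summit. The dotted line marks rank 7521, and 7 of the 10 extra copies (asterisks) have no summit in either list.

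The 10 extra copies had summits in fewer cases than the other 34 eIF genes, a difference that was not tested. They were taken as eIF4E3, eIF4E4, eIF4E5, eIF4E6, eIF4E7, eIF4G2, eIF3d2, eIF3f2, eIF3g2 and eIF4H2, of which eIF4E3 and eIF4G2 are known to act in spermatogenesis. An IDR summit was found at 1 of the 10 copies, against 19 of the other 34 eIF genes (55.9%) and the 40.0% of all genes given above. Among the 34 it was found at 1 of the 6 lead copies named below (16.7%) and at 18 of the 28 remaining genes (64.3%). In the pooled list the counts were 1 of 10 and 29 of 34 (85.3%), beside 64.6% of all genes. The pooled counts were 4 of 6 for the lead copies and 25 of 28 for the remaining genes. No summit in any of the 4 lists was found for 7 of the copies, eIF3f2, eIF3g2, eIF4E3, eIF4E4, eIF4E5, eIF4E7 and eIF4H2, and for 2 of the other genes, eIF3g1 and eIF4G1. Over all protein-coding genes 21.9% had none.

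The copies have short windows, and length moved with the counts. Of the 10 copies, 6 were in the shortest of 3 equal classes of window length (up to 3463 bp), where 23.0% of all genes had an IDR summit. In that class, 0 of 6 copies and 3 of 7 other eIF genes had one, and the pooled list gave 0 of 6 and 5 of 7, beside 46.5% of all genes. In the middle class an IDR summit was found at 0 of 2 copies and 9 of 16 other eIF genes, beside 38.2% of all genes. A pooled one was found there at 0 of 2 and 16 of 16, beside 65.8%. In the longest class an IDR summit was found at 1 of 2 copies and 7 of 11 other eIF genes, and a pooled one at 1 of 2 and 8 of 11, beside 58.7% and 81.5% of all genes. The part of length in the difference was not tested further. eIF3d2 had 1 summit in replicate 2, 1156 bp upstream at rank 24124, and eIF4E6 had 1, 319 bp upstream at rank 13396.

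eIF4G2 was the extra copy with IDR summits, and it shares its start site with CG33111 inside CG34355. Its 3 summits lay 1045 bp downstream in an intron (rank 2891), 1210 bp upstream and 145 bp upstream of CG34355 (rank 3946), and 45 bp upstream of its own start (rank 5017). The highest had 284 in replicate 1 and 51.6 in replicate 2. Of the lead copies eIF4E1, eIF4G1, eIF3d1, eIF3f1, eIF3g1 and eIF4H1, 1 had an IDR summit in its window and 4 had a pooled one. None of the lead copies had an IDR summit within 500 bp of an own start site. The IDR summit was that of eIF3d1, at GILT2.

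eIF6 had the highest peak at an own start site apart from eIF4EHP. The summit lay 105 bp upstream (2R, 23850184 to 23850593) at rank 57 of the IDR list. It had a signal of 2675 in replicate 1 (rank 61) and 691 in replicate 2 (rank 48). The nearest other protein-coding start was that of ytr, 667 bp away, and the summit lay inside ytr and in an exon of the antisense gene asRNA:CR45928. eIF6 and eIF4EHP were the eIF genes whose own promoter peak ranked in the first 100.

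Summits at eIF promoters lay closer to the start site than over all genes. For the 16 genes with an IDR summit within 500 bp, the highest such summit had a median position of -74.5 bp from the nearest own start site (quartiles -154 and -45 bp), where negative is upstream. The median over 4029 protein-coding genes was -137 bp (quartiles -223 and -75 bp). In the highest peaks of each replicate the eIF median was -81.5 bp in replicate 1, against -136 bp over all genes, and -62 bp in replicate 2, against -138 bp. Upstream of the start site were 14 of 16 eIF summits (87.5%), against 89.3% over all genes. In the pooled list the medians were -61.5 bp for 30 eIF genes and -113 bp for all genes. No test was made of these differences.

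**Figure D3:**
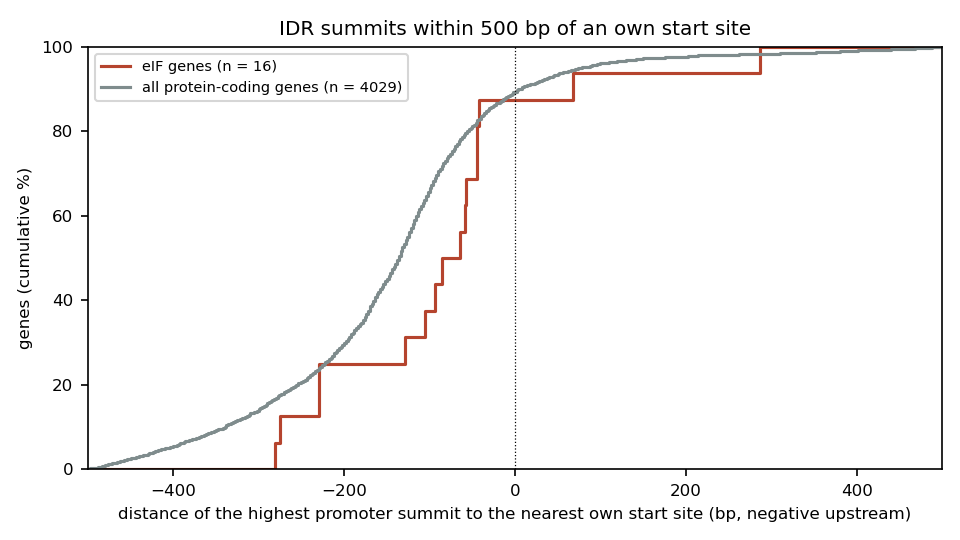
Cumulative share of genes by the distance of their highest IDR promoter summit to the nearest own start site, for 16 eIF genes and 4029 protein-coding genes. The medians are -74.5 and -137 bp, and the eIF curve crosses that of all genes in places, as at -230 bp and near the start.

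The eIF promoter summits were also less rich in A and T. Median GC content of 101 bp around them was 39.1% (range 19.8 to 60.4%), against 29.7% over all promoter summits of the IDR list. In the pooled list it was 43.1% against 34.7%. The lowest, 19.8%, was that of eIF4EHP and the highest, 60.4%, that of eIF4A. Over all 39 IDR summits in eIF windows the median was 32.7%, against 30.7% over all IDR summits, a smaller difference than at promoters. Of the 39, 20 lay upstream of the gene, 15 in introns, 4 in 5' UTRs and 0 in coding exons or 3' UTRs.

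Neighbouring genes supplied part of the count. Of the 20 highest summits, 13 (65%) were within 500 bp of an own start site, against 62.1% over all bound genes. Another 5 (25%) were within 500 bp of another gene's start only, against 12.8%, and 2 (10%) were near neither, against 25.2%. For 11 of the 20 (55%) an own start was the nearest, against 63% over all bound genes. A gene on the opposite strand started within 1 kb upstream of 20 eIF genes (45.5%), against 35.2% of all genes. Of these 20 genes 11 had an IDR summit in the window and 9 at the promoter, against 9 and 7 of the other 24. Binding cannot be assigned to either gene of such a pair.

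TATCGATA, the element recognised by DREF, a factor known from promoters of growth and proliferation genes, was frequent at eIF starts. It was found between 250 bp upstream and 50 bp downstream of the 5' end of 12 of 44 eIF genes (27.3%), against 9.36% of all 13968 promoters of the same length. The sequence is its own reverse complement, and both strands were searched for all motifs. In the 101 bp around the highest promoter summit it was found in 3 of 16 cases (18.8%), against 3.57% of all genes with such a summit. The cases were eIF1, eIF2A and eIF3a, and the summits of eIF1 and eIF3a lay nearer to the starts of RpL28 and CG1074. With the pooled list the element was found in 6 of 30 cases (20.0%), against 4.58%. Of the promoters with an IDR summit 5 of 16 held it and of those without one 7 of 28. Of the extra copies 1 of 10 held it, eIF4E6.

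The 14 copies of TATCGATA lay from 217 bp upstream to 31 bp downstream of an own start site, and eIF2gamma had 3. A pooled summit lay within 150 bp of the element in 6 of the 12 genes. The other 6 were eIF2gamma, eIF3c, eIF3l, eIF4A, eIF4B and eIF4E6. Elements of 3 of the 4 genes with a pooled summit within 50 bp are shown first (the other is eIF2Bbeta, 30 bp from its weaker summit), with 11 bases on both sides on the strand of the gene, release 6 sequence, the element in capitals. eIF2alpha, eIF3f1 and eIF3a are followed by eIF1, whose copy lies outside the promoter window, with the stretch around its summit, and then by eIF2gamma and eIF4B, which had no pooled summit.
eIF2alpha, chrX:16446988-16447017: acgcaattaaaTATCGATAacaccactgtc
eIF3f1, chr3R:4714172-4714201: cccacccgcacTATCGATAggcccttttct
eIF3a, chr3R:4433915-4433944: tcggcctgaacTATCGATAacgcagccagg
eIF1, chr3L:3223010-3223110: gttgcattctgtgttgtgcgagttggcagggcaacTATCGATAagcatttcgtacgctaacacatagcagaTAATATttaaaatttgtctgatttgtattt
eIF2gamma, chr3R:15263449-15263478: gattagagcacTATCGATAggcattgtcgg
eIF4B, chr3L:27858272-27858301: cccgaaataaaTATCGATAacgatatagga

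In the eIF1 stretch the later capitals mark ATATTA on the other strand. The eIF2alpha, eIF3f1 and eIF3a elements lay 9, 4 and 34 bp upstream of the start site, and 19, 41 and 30 bp from the pooled summit. The nearest element of eIF2gamma lay 5 bp upstream of its start, and that of eIF4B 15 bp upstream. The element was thus found at starts with and without a summit.

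Other motifs showed smaller departures from all promoters. GGTCACAC, the core recognised by M1BP, was in 6 eIF promoters (13.6%, against 7.70%), and TAATTA was in 14 (31.8%, against 20.5%). CACGTG, the E-box that Myc binds, was in 3 (6.82%, against 4.23%), and ATATTA was in 15 (34.1%, against 33.5%). Around the 16 IDR promoter summits TAATTA was found in 2 (12.5%, against 13.0%), those of eIF4EHP and eIF5. ATATTA was found in 4 (25%, against 25%), GGTCACAC in 1 (6.25%, against 1.69%) and CACGTG in 0, against 0.794%. A match here is a match of letters and was not tested as a binding site.

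The longest eIF genes, eIF4EHP and eIF5B, held several summits in introns, while the next in length did not. eIF5B had 8 IDR summits in a window of 34.3 kb and eIF4EHP 7 in 47.9 kb, or 2.33 and 1.46 per 10 kb. Over the 381 protein-coding genes with windows of 30 to 50 kb the median was 2 summits. In eIF5B, 7 of the 8 lay in introns, from 5.43 to 27.7 kb from the nearest own start site, with signals from 172 to 905. In eIF4EHP, 6 of 7 lay in introns between 2.51 and 39.9 kb, with signals from 149 to 430, all below the promoter peak of 5084. Syx1A, a syntaxin gene of synaptic release, and CG10694 lie inside eIF4EHP, and the summit at 2.51 kb was 687 bp upstream of Syx1A. eIF4B (15.6 kb) and eIF4G1 (15.4 kb) followed in length and had 0 IDR and 0 pooled summits, and eIF4G2 (10.95 kb) had 1 of its IDR summits in an intron. Of the other 18 bound genes 13 had 1 IDR summit, 4 had 2 and eIF4G2 had 3.

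**Figure D4:**
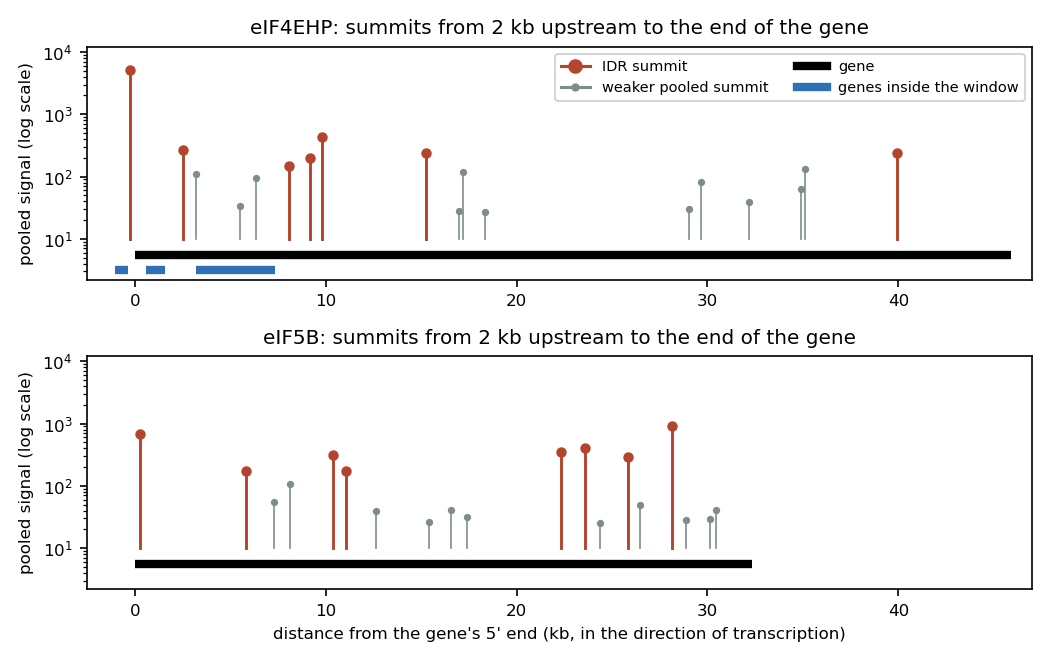
Summits along eIF4EHP and eIF5B by distance from the 5' end of the gene (kb) and pooled signal (log axis), IDR summits in red and weaker pooled summits in grey. Black bars are the genes and blue bars the protein-coding genes inside the window; the promoter peak of eIF4EHP, at 5084, stands above its 6 intron summits, while eIF5B has its highest summit, 905, near the 3' end.

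By each gene's highest summit in the window, the IDR threshold, rank 7521, fell in a gap between eIF genes. Just inside it were eIF5 (rank 6321) and eIF3k (rank 6452), and just outside were eIF2Bepsilon (rank 8614), eIF3f1 (rank 8939) and eIF2alpha (rank 9317). Further summits of genes already bound lay in that gap, among them those of eIF4EHP (rank 7638) and eIF2D (rank 7806). The promoter summit of eIF2Bgamma, at rank 8071, lay there too. Of the 28 eIF genes without an IDR summit at a promoter, 14 (50%) had a weaker pooled one, against 34.5% of such genes overall. Their median position was -43 bp, against -60 bp.

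Genes that act with the eIFs are described by count alone, beside the 40.0% of all genes with an IDR summit in the window. Of 16 regulators of initiation 11 had an IDR summit in the window and 9 at a promoter, where 28.8% of all genes had one. Their highest were Lk6, the kinase of eIF4E, at rank 9, with the summit at -978 bp from its nearest own start, and larp at rank 71, at -339 bp. PPP1R15, a phosphatase subunit that acts on eIF2alpha, had one at rank 94, nearer to Sox14, and pix, a ribosome recycling factor, had one at -97 bp at rank 1849. Both kinases of eIF2alpha, PEK and Gcn2, had 0 IDR summits. Of 9 elongation and release factor genes 7 had an IDR summit and 9 a pooled one, beside 64.6% of all genes for the pooled list. The highest IDR summits were those of eRF3 (rank 692) and eRF1 (rank 1278). That of eRF3, at -244 bp from its own start, was nearer to SC35, at -170 bp.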

How the data were processed

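Peaks came from ChIP-seq of 2 biological replicates of 1 group. Per the notes deposited with the files, the authors called peaks on each replicate and on both together against the same control alignment and derived the IDR list from these. Assembly was dm6 per the labels; the aligner, the caller, the depth and the IDR threshold are not given in the sources used here. The deposited signal is the authors' score per peak, of unstated scale, and was only ranked within a list. Peaks were not ranked on their deposited −log10 q-value. A summit was the deposited start plus the summit offset, counted from 1 in results. Annotation was Ensembl release 115 and sequence the release 6 reference, both on dm6 coordinates; no peak ran past a chromosome end.

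Genes were bound where a summit lay in the gene or 2 kb upstream; promoter summits were within 500 bp of any own transcript start, and motif windows 50 bp either side of a summit. Every member is named, with full values by rank, by absence of peaks or by distance. Members and lists were chosen with earlier results of these data known, so counts stand beside all protein-coding genes without a test of the list. No p-value was calculated. Tor of the regulator list is not reported here. Assignment was tested on simulated data. Alternatives were other peak sets, either replicate by itself, other windows, promoter width, matching distance and motif window. Python 3.11.15, numpy 2.4.6, scipy 1.17.1 and matplotlib 3.10.9 were used.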

Additional observations from a re-analysis of the deposited data

How the results depend on the processing

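All alternatives were planned. Of 67 alternative values for 13 results 47 stayed within the range set for them and 20 did not. Only the median position could change sign, and it did not. For the median position and the median rank the range was the spread of the values with 1 replicate left out. Those values were themselves among the alternatives. Among IDR peaks above the list's median signal 12 eIF genes were bound (3569 of all genes) and 8 at a promoter (2418), at a median of -99.5 bp, and TATCGATA was in 1 summit window, GGTCACAC in 0 and TAATTA in 1. With all pooled peaks 30 eIF genes had a promoter summit (7453 of all genes), and 9024 of all genes were bound. In the gene body alone 7 eIF genes (15.9%) and 2229 of all genes (16.0%) were bound. Fewer peaks or less sequence give lower counts by construction. With 1 kb either side of a start the median position was -99.5 bp. Among promoter summits alone the median rank was 3755. With 100 bp either side of summits GGTCACAC was in 2 windows, TAATTA in 4 and ATATTA in 7, as wider windows hold more by construction.

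With 1 replicate left out, bound eIF genes ranged from 20 to 22 and promoter-bound from 16 to 18, extra copies stayed at 1, and the median position ranged from -81.5 to -62 bp. Without replicate 1 the median rank was 3495, against 2848 without replicate 2, and TAATTA was in 1 window, against 2; the cause was not tested. TATCGATA was in 2 windows without either replicate. Bound counts of all genes ranged from 5524 to 5778. No paired analysis was possible because there was 1 group. Read depth, not given in the sources used here, limits what the lists show below their 30000 peaks.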

Other observations

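Some members had summits in a replicate list with no partner within 150 bp in the pooled list. eIF4B, whose nearest other protein-coding start lies 154328 bp away, had them at 1325 and 82 bp upstream in replicate 2, at ranks 6661 and 11578. eIF6 had another at 1143 bp upstream in replicate 2, at rank 5244. eIF3b had one at 1791 bp upstream at rank 8111 of replicate 2 and one at 676 bp upstream at rank 22702 of replicate 1. eIF2gamma had 3 copies of TATCGATA within 92 bp upstream of its start and no pooled summit.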
